A study of Mus musculus with 15 samples.

Results

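The Hox genes encode the homeodomain transcription factors that give cells along the body axis their address. The protein-coding genes of the 4 mouse clusters were selected by symbol (Hox, a cluster letter from a to d, and a number), which gave 39 of the 35675 genes for which transcript values were summed. Each of the 15 libraries was a bulk RNA-seq library of mouse embryonic fibroblasts (MEFs) or of cultures made from them, in 5 conditions of 3 libraries. MEFs are connective tissue cells grown out of mid-gestation embryos. They were prepared here from what remained of an embryo after the head, internal organs and intestine were removed, so each line held cells of many trunk levels and of the limbs. The same 3 lines, each from a separate embryo, were used in every condition, and are called lines 1, 2 and 3. All cells carried the transgene Tg:Pax7-nGFP, a nuclear green fluorescent reporter for Pax7, on a C57BL6;DBA2 background.

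The control MEFs stayed untransfected in the induction medium. The cultures named +MyoD received 4 transfections of synthetic mRNA for MyoD, the master regulator of skeletal muscle, together with B18R, a viral protein that binds type I interferon. MyoD + F/R/C cultures were given in addition forskolin, which raises cyclic AMP, RepSox, an inhibitor of the TGF-beta receptor, and CHIR99210 (as the labels spell it), an inhibitor of GSK3. A further inhibitor was added to this cocktail in the last 2 conditions, SP600125 (SP), which acts on the kinase JNK, or CP690550 (CP), which acts on JAK kinases. The labels place all 15 libraries at day 10, but the names under which the MEF tables were deposited give day 0. If these hold, treatment and days in culture cannot be told apart in any comparison with MEFs. The estimated counts of a library summed to between 29393872 and 41885769. Each condition was a mixed culture, and in bulk RNA fewer cells of a type and less RNA per cell cannot be told apart.

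Hox genes lie in 4 clusters that arose by duplication of an ancestral cluster. Within a cluster they are ordered by paralog number, and genes at the low-numbered (3′) end are expressed from more anterior levels than those at the high-numbered (5′) end, where the last paralogs mark the tail end of the trunk, the external genitalia and the hands and feet. Fibroblasts keep much of the Hox pattern of their place of origin in culture, with Polycomb complexes holding silent members and Trithorax complexes holding active ones. Hox proteins bind DNA together with TALE homeodomain partners of the Pbx, Meis and Pknox families. In GRCm38 coordinates, the Hoxa cluster (11 genes, minus strand) spans chr6:52155590-52260880, the Hoxb cluster (10 genes, plus strand) chr11:96194316-96368256, the Hoxc cluster (9 genes, plus strand) chr15:102921103-103036852, and the Hoxd cluster (9 genes, plus strand) chr2:74668310-74765142. Paralogs 1 to 4 are called anterior here (12 genes), 5 to 8 central (11 genes) and 9 to 13 posterior (16 genes).

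The promoters of 5 members whose levels differed between conditions are shown here, since they are the sequences next to which those levels were read. Each is the 250 bases before the RefSeq start site in GRCm38.p6, written 5′ to 3′ on the gene's own strand, and none of the 5 overlapped an annotated exon. Hoxa5 (chr6:52204588-52204837, minus strand) and Hoxb8 (chr11:96281655-96281904, plus strand) rose after MyoD. Hoxa9 (chr6:52227371-52227620, minus strand), Hoxd12 (chr2:74674763-74675012, plus strand) and Hoxd13 (chr2:74667975-74668224, plus strand) are posterior genes called lower than MEFs in 2 or 3 of the 3 conditions with F/R/C, Hoxd12 with SP and CP, Hoxd13 with F/R/C alone and with CP, and Hoxa9 in all 3. Capitals mark the motifs searched for on both strands.
Hoxa5: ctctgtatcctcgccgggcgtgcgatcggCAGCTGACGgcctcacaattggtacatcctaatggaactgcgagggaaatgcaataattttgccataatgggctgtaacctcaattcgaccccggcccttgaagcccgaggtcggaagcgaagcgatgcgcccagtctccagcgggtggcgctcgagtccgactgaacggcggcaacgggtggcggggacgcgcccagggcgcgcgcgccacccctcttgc
Hoxb8: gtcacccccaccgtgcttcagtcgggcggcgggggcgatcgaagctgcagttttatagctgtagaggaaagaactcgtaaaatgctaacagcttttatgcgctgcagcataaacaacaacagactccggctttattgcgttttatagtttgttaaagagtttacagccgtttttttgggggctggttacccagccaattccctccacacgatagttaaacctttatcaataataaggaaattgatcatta
Hoxa9: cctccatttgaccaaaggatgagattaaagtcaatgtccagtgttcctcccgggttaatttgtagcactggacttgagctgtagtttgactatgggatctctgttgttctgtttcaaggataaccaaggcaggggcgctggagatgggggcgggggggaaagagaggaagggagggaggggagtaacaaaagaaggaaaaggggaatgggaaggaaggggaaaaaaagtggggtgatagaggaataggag
Hoxd12: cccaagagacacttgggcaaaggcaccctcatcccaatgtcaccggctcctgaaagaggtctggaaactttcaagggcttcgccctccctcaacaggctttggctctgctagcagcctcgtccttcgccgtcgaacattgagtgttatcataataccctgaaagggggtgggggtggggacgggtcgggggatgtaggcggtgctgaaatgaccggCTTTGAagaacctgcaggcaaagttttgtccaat
Hoxd13: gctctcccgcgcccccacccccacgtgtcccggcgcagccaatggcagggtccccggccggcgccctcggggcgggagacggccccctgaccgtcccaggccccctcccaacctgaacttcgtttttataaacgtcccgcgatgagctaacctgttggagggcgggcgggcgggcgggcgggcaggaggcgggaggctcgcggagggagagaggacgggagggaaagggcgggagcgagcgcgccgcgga
RefSeq windows were at hand for 22 of the 39 members (24 windows). The E-box CAGCTG, the form of the MyoD binding sequence that MyoD prefers, was present in 4 of these 24 windows of 300 bases (Hoxa3, Hoxa5, Hoxa6 and Hoxa11) and in 16.3% of all 32851 promoter windows. In Hoxa5 it began 221 bases before the start site and overlapped TGACG, the core of the cAMP response element, which 7 of 24 member windows and 20.8% of all windows held. The full element TGACGTCA was in no member window and in 1.79% of all windows. CTTTGA, the TCF and LEF sequence, lay 34 bases before the Hoxd12 start and was in 4 of 24 member windows and 16.0% of all. The AP-1 sequence TGANTCA was in 1 member window, of Hoxd11, and in 7.81% of all. The motifs mark letters in these windows and not sites of binding.

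Levels are given in TPM, a length-corrected share of the transcripts of a library. Hoxb9, a thoracic patterning gene, had the highest mean level over the 15 libraries of any member (29.8 TPM), followed by Hoxa10, which patterns the lumbar spine and upper limb segments (23.6 TPM), and Hoxc6, a thoracic gene (17.3 TPM). The lowest were Hoxb1 and Hoxd1, hindbrain genes that did not exceed 0.169 and 0.267 TPM in any library and were too low to test. The remaining 37 members had a median of mean levels of 5.78 TPM, beside 8.77 TPM over the 19331 genes tested. Of these 37, 33 reached the count minimum in all 3 libraries of every condition. Hoxb13 reached it in all 3 MEF libraries and in 1 of the other 12, so that a lower level elsewhere was built into its being tested, and Hoxc12, Hoxd3 and Hoxd12 reached it in part of the libraries.

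**Figure D1:**
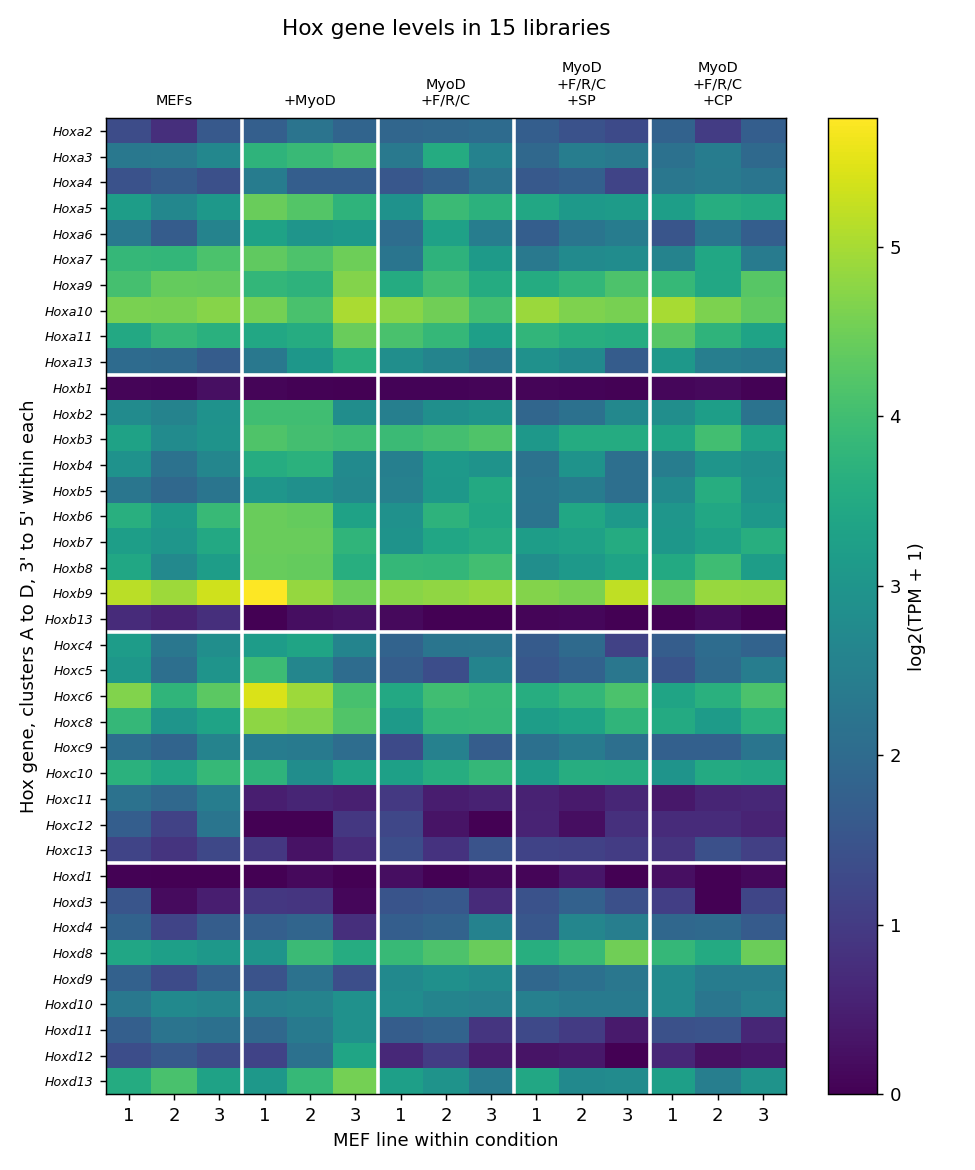
Level of Hox genes in each of the 15 libraries, as log2(TPM + 1) by colour, with genes ordered along each cluster and libraries grouped by condition (lines 1 to 3 in each). Hoxb9 and Hoxa10 stand out as high in every library, Hoxb1 and Hoxd1 as near 0, and line 3 of +MyoD differs from lines 1 and 2 of +MyoD along the clusters.

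In the untransfected MEFs the summed Hox level was 291, 241 and 295 TPM in lines 1, 2 and 3. Posterior genes made up 44.9, 56.0 and 50.4% of this sum, central genes 38.9, 31.2 and 36.2%, and anterior genes 16.2, 12.8 and 13.4%. By cluster, Hoxa held 31.1 to 37.6% of it, Hoxb 28.1 to 32.1%, Hoxc 18.2 to 25.8% and Hoxd 10.7 to 16.1%. The MEFs thus held RNA of every axial class, with the highest posterior share and the lowest Hoxc share in line 2.

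The +MyoD cultures had the highest summed Hox level of the 5 conditions, at 424, 375 and 352 TPM, and the 3 libraries did not overlap the MEFs. The log2 ratio of the sums was 0.48 ± 0.12 (SE, n = 3 lines per condition), with a two-sided exact permutation p of 0.1, the smallest that 3 libraries against 3 can give. Anterior genes summed to 47.2, 30.8 and 39.7 TPM in MEFs and to 77.9, 78.4 and 54.6 TPM in +MyoD (log2 ratio 0.84 ± 0.25). For central genes the sums were 113, 75.3 and 107 TPM in MEFs and 208, 182 and 127 TPM in +MyoD (0.80 ± 0.28). Neither class overlapped between the conditions, with an exact permutation p of 0.1 for each. Posterior genes summed to 131, 135 and 149 TPM in MEFs and 138, 115 and 171 TPM in +MyoD, and these overlapped (0.02 ± 0.17, exact permutation p = 0.9). Genes as a whole sat higher in TPM than in the normalised CPM (counts scaled to library size) used for the tests, by a median log2 shift between +MyoD and MEFs of 0.13, and on the CPM scale the ratios were 0.68 for anterior, 0.61 for central and -0.08 for posterior genes.

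**Figure D2:**
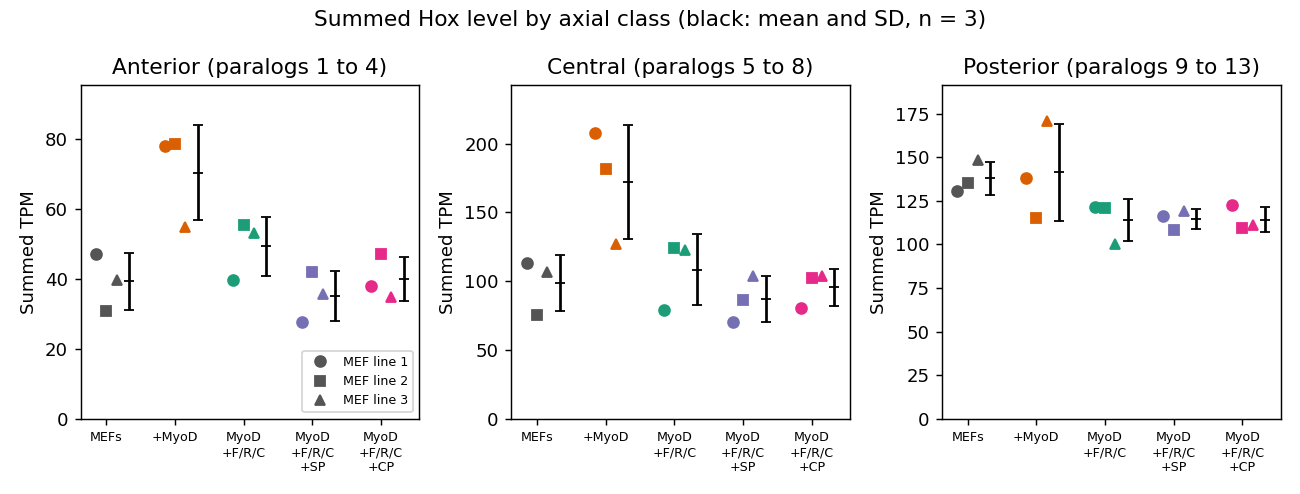
Summed TPM of the 12 anterior, 11 central and 16 posterior Hox genes in each library (points, by line) with the mean of 3 lines and its SD beside them. Anterior and central sums are highest in +MyoD, while the posterior sums of +MyoD span those of the MEFs.

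Cultures with F/R/C, alone or with an inhibitor added, had Hox sums nearer the MEFs: 240, 300 and 276 TPM with F/R/C, 214, 236 and 259 TPM with SP and 241, 258 and 250 TPM with CP. Their posterior sums were 121, 121 and 100 TPM with F/R/C, 116, 108 and 119 TPM with SP and 123, 109 and 111 TPM with CP. All 9 of these lay below the lowest MEF value, with log2 ratios of -0.28 ± 0.11, -0.27 ± 0.07 and -0.27 ± 0.08 (exact permutation p = 0.1 for each). In CPM the same ratios were -0.47, -0.48 and -0.48, the median shift of all genes between the scales being 0.18, 0.14 and 0.16. The share of posterior genes itself was 36.3 to 50.6% with F/R/C and overlapped that of MEFs. Weighting each paralog number by its gene's TPM gave a mean position along the clusters of 7.59, 8.20 and 7.82 in MEFs, 6.95, 7.04 and 8.03 in +MyoD and 7.93, 7.36 and 7.20 with F/R/C. Lines 1 and 2 thus lay at a lower position after MyoD, and line 3 lay higher.

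Cell type markers also differed between the conditions. From MEFs to +MyoD, all 18 muscle differentiation genes rose (summed TPM from 50.8-73.8 to 1468-2223), all 14 proliferation genes fell (from 1416-1563 to 159-226) and 12 of 14 fibroblast genes rose (from 2681-3028 to 11980-19310). Among muscle genes, Myh4 and Mymx were at 0 in MEFs. With F/R/C, muscle genes summed to 6482-10640 TPM and proliferation genes to 310-515 TPM. Myod1 itself measured 0.494, 0.0941 and 0.340 TPM in MEFs against 3324, 1378 and 1607 TPM in +MyoD, where synthetic and endogenous transcript cannot be told apart. Chondrocyte genes, which mark another descendant of the same mesoderm, summed to 59.4-90.1 TPM in MEFs, 75.4-226 in +MyoD and 18.0-31.1 with F/R/C, with Matn1 at 0, and 3 of 9 tested rose and 2 fell after MyoD. Of 6 epithelial genes tested, 4 fell (summed TPM from 183-198 to 25.3-53.7), with Krt5 and Krt14 at 0. Neuronal genes (1 of 8 rose, with Rbfox3 at 0 in MEFs) stood at 75.1-113 and 108-178 TPM, macrophage genes at 23.7-35.2 and 22.4-30.6, endothelial genes (1 of 8 fell, with Cldn5 at 0) at 3.37-5.21 and 2.23-3.68, and melanocyte genes (2 of 7 tested rose and 1 fell) at 3.67-6.23 and 7.26-12.8, the last reaching 32.7-59.6 TPM with CP. The part of these cell types in the Hox values was not tested.

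The comparison of +MyoD with MEFs asks how the positional code of MyoD-transfected cultures differed from that of untransfected MEFs. No condition was transfected without MyoD mRNA, so MyoD, the transfections and B18R cannot be told apart. The words "after MyoD" stand for this comparison. A gene was called where edgeR's adjusted p was at most 0.05 and the log2 fold change exceeded 0.5 in size. By this rule 8 of the 37 members tested rose, a share near that of all genes tested (22.8%), and 1 fell, beside 18.0%. The members that rose were mostly central genes. Those that rose were Hoxa3 and Hoxb3 (of 10 anterior genes tested), Hoxa5, Hoxb5, Hoxb7, Hoxb8 and Hoxc8 (of 11 central genes), and Hoxa13 (of 16 posterior genes), while Hoxc11 fell. Median log2 fold changes were 0.67 for anterior, 0.81 for central and -0.10 for posterior members, and 0.12 for all genes. By cluster, 3 of 11 tested Hoxa, 4 of 9 Hoxb, 1 of 9 Hoxc and 0 of 8 Hoxd genes rose. The Hoxd count was 0 with DESeq2 as well, and none of the 8 had an unadjusted p under 0.05.

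Both called anterior genes belong to paralog group 3, which patterns the pharyngeal arches and the neck. Hoxa3 measured 3.97, 4.01 and 5.30 TPM in MEFs and 12.5, 13.9 and 16.0 TPM in +MyoD (log2 fold change 1.23 ± 0.31, SE with n = 3 per condition, adjusted p = 0.00445). The groups did not overlap, yet in +MyoD line 3 the short transcript Hoxa3-202 held 7.59 TPM, and by CPM that line differed from its MEFs by 0.45 (log2) against 1.43 and 1.58 in lines 1 and 2. Hoxb3 measured 8.94, 5.91 and 6.73 TPM in MEFs and 17.0, 15.4 and 14.4 TPM in +MyoD (1.04 ± 0.22, adjusted p = 0.00103). Every +MyoD line stood above every MEF line.

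Among the central genes, Hoxa5, which patterns the cervical and upper thoracic spine and the lung, measured 8.26, 5.34 and 7.34 TPM in MEFs and 20.6, 17.7 and 12.4 TPM in +MyoD (1.16 ± 0.27, adjusted p = 0.00248). Hoxc8, a thoracic gene, measured 13.3, 7.05 and 9.08 TPM in MEFs and 26.3, 24.6 and 17.4 TPM in +MyoD (1.02 ± 0.28, adjusted p = 0.00707). Neither gene overlapped between the groups, and in both the smallest +MyoD value was that of line 3. The Hoxb neighbours showed the same shape: Hoxb7 measured 8.35, 7.16 and 10.1 TPM against 20.7, 20.7 and 12.6 TPM (0.84 ± 0.26, adjusted p = 0.0162), and Hoxb8 9.78, 5.55 and 8.27 TPM against 20.5, 20.1 and 11.2 TPM (0.81 ± 0.23, adjusted p = 0.00874). Hoxb5, which places the shoulder girdle, measured 3.79, 2.85 and 3.70 TPM against 7.13, 6.39 and 5.40 TPM (0.82 ± 0.30, adjusted p = 0.034). Line 3 was again the lowest of the +MyoD values in each, while no MEF value reached it in TPM. By CPM, however, line 3 differed from its MEFs by -0.05 for Hoxb7, whose groups then overlapped, by 0.05 for Hoxb8 and by 0.33 for Hoxb5 (log2). In that library 2.02 TPM of Hoxb7 came from the processed transcript Hoxb7-202. This transcript was at 0 in the MEFs and at 2.92 and 0 TPM in +MyoD lines 1 and 2.

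The calls in this group did not all rest on every library. Without MEF line 2 the number of members called higher fell from 8 to 4, and Hoxb5, Hoxb7 and Hoxb8 (adjusted p = 0.0545) were among those that lost the call. Hoxb7 was also lost without MEF line 1 and without +MyoD line 2 (adjusted p = 0.0974 for the latter). Hoxb5 was lost under 9 of the 15 omissions (adjusted p up to 0.131). Hoxa3, Hoxa5, Hoxb3, Hoxc8 and Hoxc11 kept their calls under all of them.

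At the posterior end, Hoxc11, a gene of the sacral spine and hindlimb, was the only member called lower in this comparison. It measured 3.50, 2.84 and 4.43 TPM in MEFs and 0.394, 0.518 and 0.417 TPM in +MyoD (-3.12 ± 0.49, adjusted p = 9.36e-05). It was as low with F/R/C (0.951, 0.369 and 0.474 TPM), with SP (0.454, 0.342 and 0.539 TPM) and with CP (0.288, 0.521 and 0.547 TPM), all 12 treated libraries lying below the MEFs. Its neighbour Hoxc12 measured 2.28, 1.20 and 3.73 TPM in MEFs and 0, 0 and 0.909 TPM in +MyoD, which missed the threshold (-3.09 ± 1.46, adjusted p = 0.101). Hoxc10, on the other side of Hoxc11 and a lumbar gene, measured 11.8, 9.55 and 13.5 TPM in MEFs and 12.3, 6.06 and 9.07 TPM in +MyoD and was called in no comparison. The difference between Hoxc11 and its neighbours was not tested. Without +MyoD line 1, 4 members were called lower in place of 1, and without +MyoD line 3, 2 were.

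Hoxa13, which patterns the digits and the genital tubercle, was the only posterior member that rose, and it rested on line 3. It measured 3.05, 2.93 and 2.17 TPM in MEFs and 3.94, 7.23 and 11.4 TPM in +MyoD (1.40 ± 0.47, adjusted p = 0.0236). Without +MyoD line 3 the fold change was 0.86 and the adjusted p was 0.167. Leaving out MEF line 2 or 3 also ended the call (adjusted p from 0.0591). The limb genes of the same class were likewise highest in this library: Hoxd13, the digit gene of the Hoxd cluster, measured 10.6, 16.2 and 8.90 TPM in MEFs and 7.39, 13.6 and 22.4 TPM in +MyoD (0.12 ± 0.39, adjusted p = 0.836). Hoxd12, also a digit gene, measured 1.56, 2.03 and 1.53 TPM against 1.24, 3.45 and 9.52 TPM (1.33 ± 0.78, adjusted p = 0.185). Hoxd11 and Hoxa11, which pattern the forearm and lower leg, reached 6.51 and 20.6 TPM in this library, their highest of the 15.

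**Figure D3:**
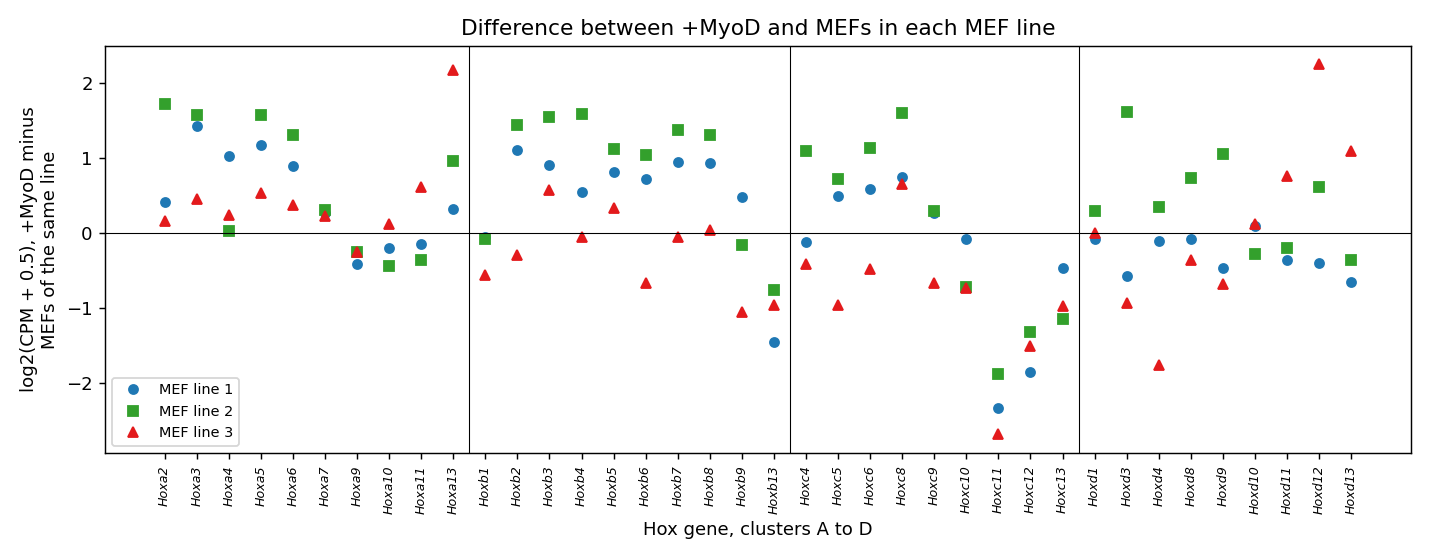
Log2 difference between +MyoD and MEFs for Hox genes in each of the 3 lines, on the log2(CPM + 0.5) scale, with genes ordered along clusters A to D. Most central genes lie above 0 in lines 1 and 2, while in line 3 they spread to both sides of 0. Genes of groups 11 to 13 in Hoxa and Hoxd separate the lines in the other direction for part of the members.

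Line by line, the median log2 difference of the 39 members between +MyoD and MEFs was 0.10 in line 1, 0.61 in line 2 and -0.05 in line 3. For anterior genes it was 0.18, 1.27 and -0.17, for central genes 0.75, 1.13 and 0.05, and for posterior genes -0.37, -0.32 and -0.46. In all 3 lines 11 members were higher and 8 were lower, and 6 of those 8 were posterior. The share of all genes with such agreement was not computed, so these counts have no background to be read against. The 8 include Hoxb1, which was too low to test, and Hoxb13, whose lower level was built into its being tested. Line 3 of +MyoD also had the highest level in that condition of limb genes outside the clusters, with Tbx5, which specifies the forelimb, at 2.33, 4.34 and 9.05 TPM, Msx1, an undifferentiated limb mesenchyme gene, at 2.07, 3.24 and 12.4 TPM, and Lmx1b, the dorsal limb gene, at 2.86, 3.64 and 10.9 TPM. What set line 3 apart was not tested. Without this library 9 members were called higher, 7 of them among the 8 above.

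**Figure D4:**
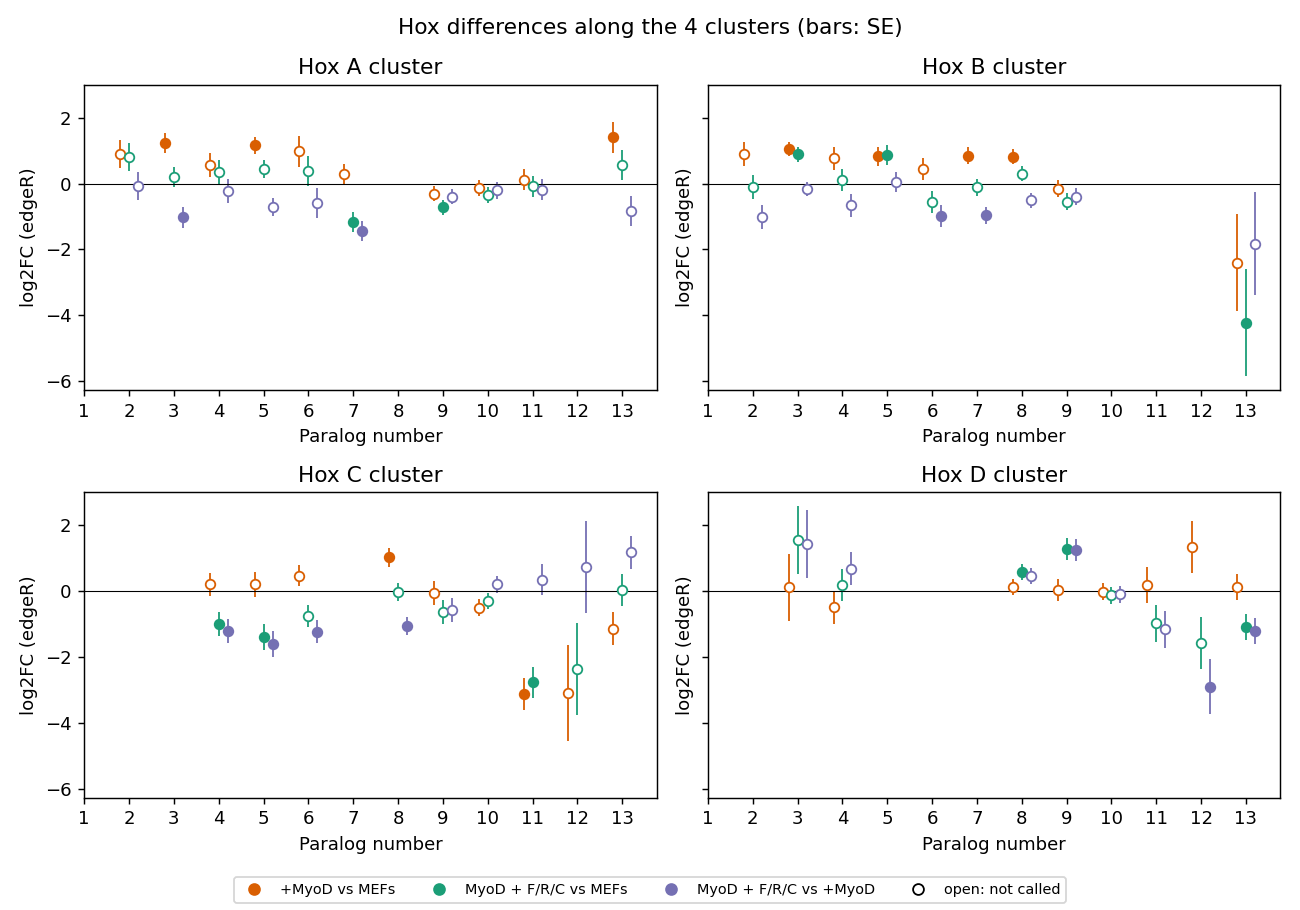
Log2 fold change of tested Hox genes along the 4 clusters in the comparisons of +MyoD with MEFs, MyoD + F/R/C with MEFs and MyoD + F/R/C with +MyoD, with bars of 1 SE from edgeR and filled points for called genes. The called central members are above 0 after MyoD and below 0 where F/R/C is compared with +MyoD, and Hoxc11 is low in both comparisons with MEFs.

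The comparison of MyoD + F/R/C with MEFs sets cultures given MyoD mRNA and the 3 small molecules beside untransfected MEFs. The transfections and B18R again came together with MyoD. Here 4 of 37 members rose (26.6% of all genes did) and 8 fell (21.6% of all genes), or 7 without Hoxb13. Those that rose were Hoxb3 (anterior), Hoxb5 and Hoxd8 (central) and Hoxd9 (posterior). Those that fell included Hoxc4 (anterior), Hoxa7 and Hoxc5 (central), and Hoxa9, Hoxb13, Hoxc11 and Hoxd13 (posterior). Median log2 fold changes were 0.19 for anterior, -0.03 for central and -0.60 for posterior members, and 0.19 for all genes. No Hoxa or Hoxc gene rose.

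Of the genes that rose, Hoxd9, a gene of the lumbosacral spine, had the largest fold change. It measured 2.44, 1.48 and 2.48 TPM in MEFs, 1.77, 3.51 and 1.60 TPM in +MyoD and 5.60, 6.37 and 5.73 TPM with F/R/C (1.29 ± 0.34 against MEFs, adjusted p = 0.00475). All F/R/C values lay above all others named, and it also rose against +MyoD (1.24 ± 0.34, adjusted p = 0.0154). Its neighbour Hoxd8, the only central gene of its cluster, measured 9.64, 8.49 and 7.42 TPM in MEFs and 13.8, 16.8 and 20.7 TPM with F/R/C (0.59 ± 0.24, adjusted p = 0.0496), a call lost under 11 of the 15 omissions of a library (adjusted p up to 0.171). The next gene in the 5′ direction, Hoxd10, measured 3.96, 5.67 and 5.18 TPM in MEFs and 5.96, 5.05 and 4.74 TPM with F/R/C and was called in no comparison. The rise was thus measured at 2 adjoining genes of the Hoxd cluster. Some reads of Hoxd10 and Hoxd11 are shared with the annotated gene Gm28309, and those of Hoxd3 and Hoxd4 with Gm28230. As a whole the Hoxd sum was 0.26 ± 0.09 (log2) above MEFs in TPM and -0.14 in CPM. It was -0.015 with the TPM of such exon-sharing genes added to each Hox partner, which counts a gene anew for every partner. No direction of the cluster sum was established.

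Hoxb3 stayed high, at 14.1, 15.4 and 17.1 TPM (0.88 ± 0.22 against MEFs, adjusted p = 0.00282), with no overlap. Hoxb5 measured 4.79, 7.46 and 10.3 TPM (0.87 ± 0.30, adjusted p = 0.0228) and lost its call without MEF line 2 or F/R/C line 2 or 3 (adjusted p up to 0.141). Without MEF line 2 or F/R/C line 3, 2 members in place of 4 were called higher.

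Hoxc4, of the cervical spine, measured 8.04, 3.89 and 6.18 TPM in MEFs, 8.05, 9.27 and 5.06 TPM in +MyoD and 2.54, 3.75 and 3.81 TPM with F/R/C (-1.0 ± 0.36, adjusted p = 0.0288). Its lowest MEF line was just above the highest F/R/C line, and the call was lost without MEF line 1 or 3 or F/R/C line 1 (adjusted p up to 0.122).

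Of the central genes, Hoxa7, a thoracic gene, measured 13.3, 12.9 and 16.6 TPM in MEFs, 19.3, 16.7 and 21.5 TPM in +MyoD and 3.70, 12.1 and 7.77 TPM with F/R/C (-1.16 ± 0.30, adjusted p = 0.00481). Line 2 was the highest of the F/R/C lines and still under each MEF value. Hoxc5, another neck gene, measured 7.31, 3.29 and 6.92 TPM in MEFs, 14.5, 5.21 and 3.10 TPM in +MyoD and 2.27, 1.56 and 5.04 TPM with F/R/C (-1.40 ± 0.40, adjusted p = 0.00805), and its groups overlapped in TPM. With counts scaled by transcript length its adjusted p was 0.0742.

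Among posterior genes, Hoxa9, active at lumbar levels and in blood progenitors, measured 15.6, 20.1 and 19.9 TPM in MEFs, 13.1, 12.1 and 24.9 TPM in +MyoD and 10.6, 15.2 and 10.6 TPM with F/R/C (-0.72 ± 0.23, adjusted p = 0.0159). The groups did not overlap, though line 2 of F/R/C was close to the lowest MEF line. Hoxd13 measured 8.5, 6.71 and 4.24 TPM with F/R/C (-1.09 ± 0.40, adjusted p = 0.0312), all below the MEF values given above, and the call was lost without MEF line 2 or F/R/C line 2 or 3 (adjusted p up to 0.154). Hoxb13, a gene of the caudal end, measured 0.645, 0.476 and 0.703 TPM in MEFs and 0.105, 0 and 0 TPM with F/R/C. Its fitted change had an adjusted p of 0.0406, and of 0.0543 with the line as a block, and the call was lost under 9 of the 15 omissions. Without MEF line 3 the members called lower numbered 5 in place of 8.

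Other highly expressed posterior genes were not called. Hoxa10 measured 23.2, 22.8 and 25.1 TPM in MEFs, 22.5, 16.3 and 31.4 TPM in +MyoD and 25.8, 21.7 and 15.1 TPM with F/R/C. Hoxa11 measured 10.1, 13.3 and 11.7 TPM, 9.93, 10.8 and 20.6 TPM, and 16.2, 13.3 and 8.49 TPM in the same conditions. Both overlapped throughout and were called in none of the 7 comparisons. Their paralog Hoxc10 measured 8.64, 11.1 and 13.2 TPM with F/R/C.

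The comparison of MyoD + F/R/C with +MyoD asks what the small molecules added to MyoD. It moved Hox genes mainly downward: 11 of 37 members fell, beside 8.39% of all genes tested, and 1 rose, beside 10.9%. Those that fell included Hoxa3 and Hoxc4 (anterior), Hoxa7, Hoxb6, Hoxb7, Hoxc5, Hoxc6 and Hoxc8 (central) and Hoxd12 and Hoxd13 (posterior), and Hoxd9 rose. The median log2 fold change of the central members was -0.96, that of anterior members -0.45 and that of posterior members -0.31, beside 0.03 for all genes. Because +MyoD serves both as the group that rose over MEFs and as the reference here, the comparisons are not independent, and the levels are given side by side.

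Hoxa7 gave the call that held under every alternative, at -1.43 ± 0.31 (adjusted p = 0.00339). Hoxc8 measured 7.77, 13.1 and 13.3 TPM with F/R/C, close to MEFs and below each +MyoD line (-1.06 ± 0.28, adjusted p = 0.0129). Hoxb7 measured 6.82, 9.55 and 10.8 TPM (-0.96 ± 0.26, adjusted p = 0.016), overlapping the MEFs. Hoxa3 measured 4.03, 10.6 and 4.87 TPM (-1.03 ± 0.31, adjusted p = 0.0272), with line 2 lying between the MEFs and +MyoD. Its neck partner Hoxb3 did not follow, at -0.15 ± 0.21 (adjusted p = 0.687). The difference between the 2 genes was not tested.

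Hoxc6 measured 24.3, 12.7 and 18.7 TPM in MEFs, 42.2, 29.0 and 15.9 TPM in +MyoD and 10.0, 15 and 13.4 TPM with F/R/C (-1.23 ± 0.34 against +MyoD, adjusted p = 0.0157). Hoxb6, also thoracic, measured 11.4, 7.75 and 13.8 TPM in MEFs, 20.8, 20.2 and 9.02 TPM in +MyoD and 6.56, 12.1 and 9.86 TPM with F/R/C (-0.99 ± 0.34, adjusted p = 0.0461). In both genes line 3 of +MyoD fell in the range of the other conditions, and in neither did +MyoD differ from MEFs by the rule (adjusted p = 0.273 for Hoxc6 and 0.311 for Hoxb6). The call of Hoxb6 was lost under 12 of the 15 omissions of a library (adjusted p up to 0.181). Hoxc5 against +MyoD gave -1.60 ± 0.40 (adjusted p = 0.00969), with line 1 of +MyoD far above the other lines, and an adjusted p of 0.0513 without it. Hoxd12 measured 0.583, 1.02 and 0.356 TPM with F/R/C (-2.91 ± 0.83, adjusted p = 0.0199) and Hoxd13 gave -1.21 ± 0.40 (adjusted p = 0.0404). Without line 3 of +MyoD the adjusted p-values of both passed 0.05. The Hoxd12 call was also lost without F/R/C line 1 or 3. For Hoxd13 the call was lost under 7 of the 15 omissions (adjusted p up to 0.194). Hoxc4 gave -1.20 ± 0.36 (adjusted p = 0.0258).

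The count in this comparison was the least stable of those made. It fell from 11 to 3 without F/R/C line 1, to 4 without F/R/C line 3 and to 5 without +MyoD line 1 or 2, and to 2 with only the 6 libraries of the comparison in the fit. No called member changed sign in any of these. The call of Hoxd9 was lost without +MyoD line 1 or 3 or F/R/C line 2, and without +MyoD line 2 there were 2 members called higher.

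**Figure D5:**
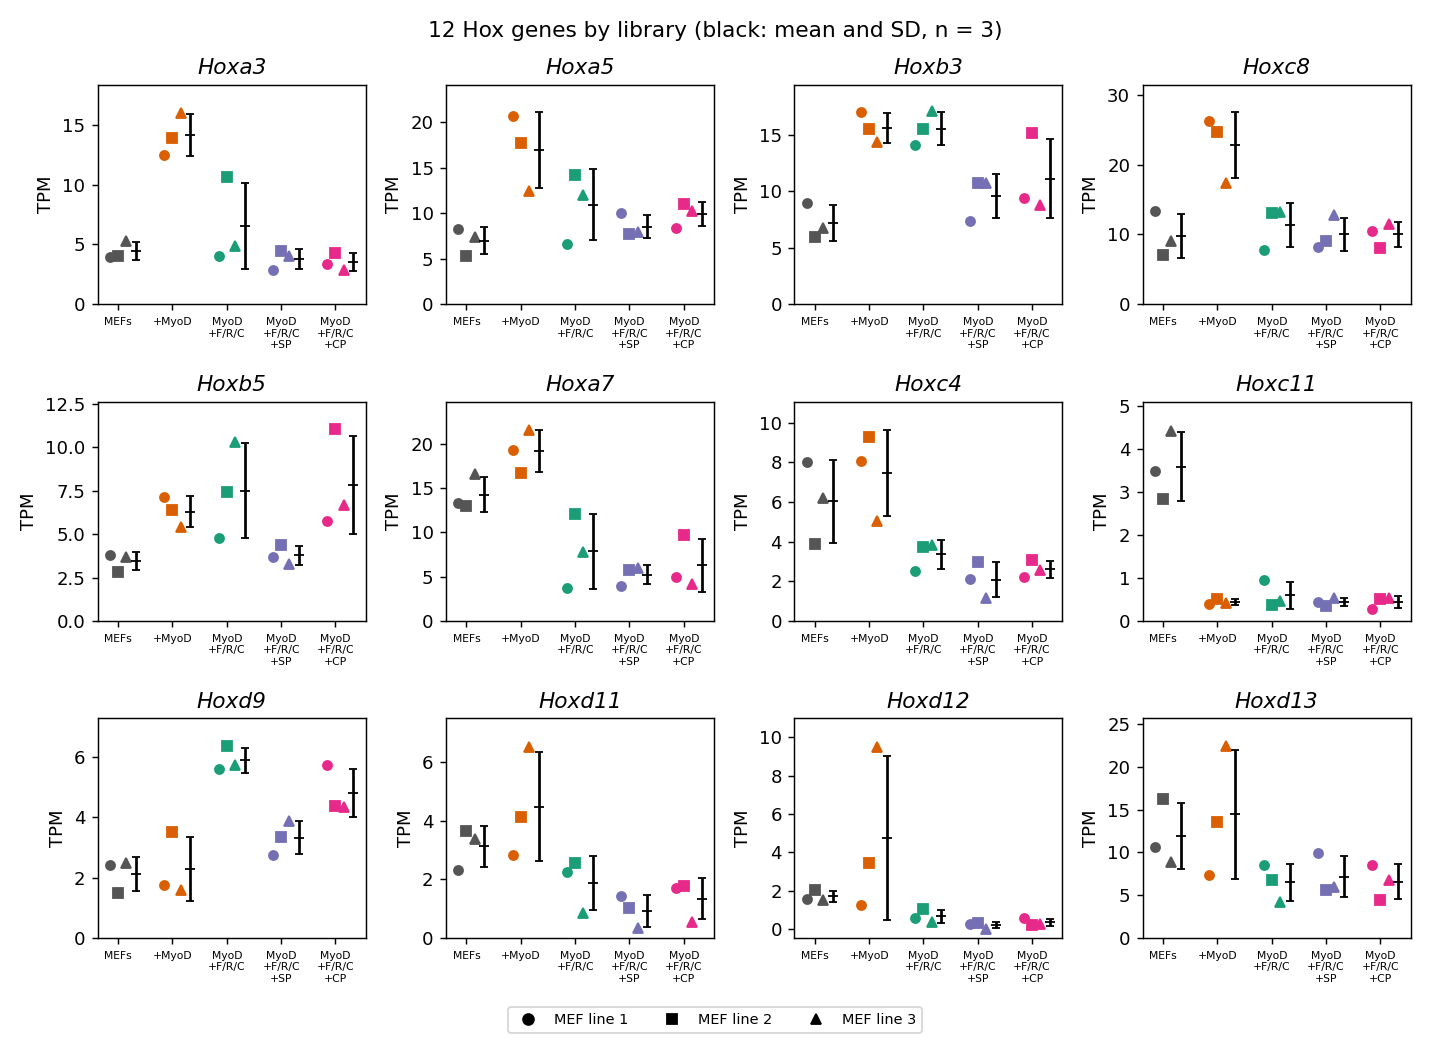
TPM of 12 Hox genes in each library by condition (circle, square and triangle for lines 1 to 3, black bars for the mean and SD). Hoxc11 is low in all 12 treated libraries, and Hoxd9 is highest with F/R/C.

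The cultures with SP or CP address whether a further inhibitor changed the code beyond F/R/C. Neither added inhibitor gave a called Hox gene against MyoD + F/R/C with edgeR (0 of 37 for each), where 0% of all genes were called higher and 0% lower with SP, and 0% and 0.0362% with CP. At an unadjusted p under 0.05 there were 4 members of 37 with SP (6.62% of all genes), Hoxb3, Hoxb5, Hoxb8 and Hoxd9, and 3 with CP (7.91% of all genes), Hoxa3, Hoxa6 and Hoxb3. The share with CP was near that of all genes, and each of these 7 had a negative fold change. DESeq2 called 0 members in either comparison as well. With SP the largest shift of the 4 was that of Hoxb5, which measured 3.71, 4.36 and 3.29 TPM against 4.79, 7.46 and 10.3 TPM with F/R/C (-0.89 ± 0.30, adjusted p = 0.672, with an interval of -1.52 to -0.25). Every SP line was below every F/R/C line for this gene. With CP, Hoxb5 measured 5.78, 11.1 and 6.69 TPM and overlapped F/R/C. Hoxb3 measured 7.37, 10.7 and 10.7 TPM with SP and 9.39, 15.1 and 8.80 TPM with CP, with intervals of -1.07 to -0.16 and -1.0 to -0.09 for the differences from F/R/C. These intervals are not adjusted for the number of genes tested.

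Compared with MEFs, the SP cultures had 0 members higher (24.5% of all genes) and 8 lower (20.1% of all genes). Hoxd8 came nearest to a rise, at 11.3, 13.8 and 21.8 TPM (0.56 ± 0.24, adjusted p = 0.0645), the only member above MEFs at an unadjusted p under 0.05, and DESeq2 called it. Those that fell included Hoxc4, Hoxa7, Hoxb6, Hoxa9, Hoxc11, Hoxd11 and Hoxd12. Hoxa7 measured 4.00, 5.72 and 5.98 TPM with SP (-1.45 ± 0.31, adjusted p = 0.00109) and Hoxc4 2.14, 2.96 and 1.19 TPM (-1.63 ± 0.37, adjusted p = 0.00164), all under the MEFs. Hoxb6 measured 3.61, 9.74 and 7.68 TPM (-0.98 ± 0.34, adjusted p = 0.0247) and overlapped the MEFs in line 2.

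The 5′ Hoxd genes Hoxd11 and Hoxd12 were below MEFs with both inhibitors, and neither was called against F/R/C alone. Hoxd12 measured 0.236, 0.300 and 0 TPM with SP (-3.33 ± 0.88 against MEFs, adjusted p = 0.00519) and 0.552, 0.206 and 0.271 TPM with CP (-2.48 ± 0.84, adjusted p = 0.0219). Hoxd11 measured 2.32, 3.66 and 3.39 TPM in MEFs, 1.43, 1.01 and 0.334 TPM with SP (-1.86 ± 0.58, adjusted p = 0.0139) and 1.71, 1.79 and 0.545 TPM with CP (-1.51 ± 0.57, adjusted p = 0.038). No inhibitor library reached the MEF range in either gene. With F/R/C alone Hoxd12 measured 0.583, 1.02 and 0.356 TPM, also below every MEF line, though it was not called against MEFs. Hoxd11 measured 2.26, 2.56 and 0.838 TPM with F/R/C alone and missed the rule (adjusted p = 0.158). The call of Hoxd11 was lost without SP line 3 (adjusted p = 0.0548), and with CP without any of 4 libraries.

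With CP, 2 members rose (24.9% of all genes did) and 10 fell (20.6% of all genes). Hoxb5 (0.93 ± 0.30, adjusted p = 0.0172) and Hoxd9 (5.72, 4.38 and 4.34 TPM, 1.01 ± 0.34, adjusted p = 0.0204) rose, and without MEF line 2 neither was called. Hoxd9 was also lost without CP line 1 and Hoxb5 without CP line 2, each leaving 1 call. Those that fell included Hoxc4, Hoxa7, Hoxc5, Hoxa9, Hoxb9, Hoxc11, Hoxd11, Hoxd12 and Hoxd13. Hoxa7 measured 4.97, 9.75 and 4.24 TPM (-1.51 ± 0.31, adjusted p = 0.000789). Hoxb9, the most abundant member, measured 35.0, 29.4 and 39.5 TPM in MEFs, 53.1, 27.9 and 21.3 TPM in +MyoD, 25.6, 26.7 and 28.5 TPM with F/R/C, 24.7, 23.3 and 36.2 TPM with SP and 19.0, 28.3 and 27.7 TPM with CP. Its CP lines lay below the MEFs (-0.67 ± 0.26, adjusted p = 0.0424), with an adjusted p of 0.0562 under the line block. Hoxc5 with CP (-1.02 ± 0.40, adjusted p = 0.0427) gave 0.0625 under the block. Without MEF line 3 or CP line 3, 6 members were called lower in place of 10.

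Over all 7 comparisons 23 of the 37 tested members were called at least 1 time, a share near that of all genes tested (61.4%). The other 14 were Hoxa2, Hoxa4, Hoxa6, Hoxa10, Hoxa11, Hoxb2, Hoxb4, Hoxc9, Hoxc10, Hoxc12, Hoxc13, Hoxd3, Hoxd4 and Hoxd10. Of these, Hoxa4 with CP against MEFs came nearest (0.92 ± 0.37, adjusted p = 0.0521). Hoxb2 after MyoD followed (0.90 ± 0.37, adjusted p = 0.0585), and its +MyoD values of 14.9, 15 and 6.04 TPM again set line 3 apart. DESeq2 called both of these (adjusted p = 0.0276 for Hoxa4 and 0.0342 for Hoxb2) and Hoxc12 after MyoD (adjusted p = 0.0457). Of the 53 calls of a member in a comparison, 20 held under all alternatives tried. These included Hoxa3, Hoxa5, Hoxb3, Hoxc8 and Hoxc11 after MyoD, Hoxa7, Hoxb3, Hoxc11 and Hoxd9 with F/R/C against MEFs, Hoxa7, Hoxc4, Hoxc11 and Hoxd12 with SP, Hoxa7, Hoxc4 and Hoxc11 with CP, and Hoxa7 between F/R/C and +MyoD.

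The other lists of positional genes were described by the same rule, and their counts stand beside the shares of all genes given above for each comparison. Of 9 Hox cofactors of the TALE family, 3 rose after MyoD (median log2 fold change 0.44, beside 0.12 for all genes) and 6 with F/R/C against MEFs (0.78, beside 0.19), 4 rose with SP and 4 with CP, and none fell. Pknox2 measured 3.0, 1.56 and 1.59 TPM in MEFs and 12.5, 9.62 and 5.39 TPM in +MyoD (1.89 ± 0.25, adjusted p = 1.65e-05). Pbx2 gave 0.62 and Meis3 0.56 in the same comparison. With F/R/C, Pbx2 reached 0.91, Meis1 0.78 and Meis2 0.80 above MEFs (log2), and against +MyoD Meis1 (0.90) and Meis2 (0.70), the partners that bind with posterior Hox proteins, were the 2 that rose.

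Of 23 Polycomb genes, which keep silent Hox genes silent, 6 rose and 11 fell after MyoD (median -0.59). Ezh2, the main methyltransferase of the complex, measured 89.2, 74.7 and 68.5 TPM in MEFs, 12.1, 11.8 and 10.6 TPM in +MyoD and 28, 22.0 and 21.6 TPM with F/R/C (-3.16 ± 0.21 and -2.20 ± 0.20 against MEFs). Suz12, a core subunit, fell by 1.48, while Ezh1, the methyltransferase of resting cells, rose by 1.16. With F/R/C against MEFs the counts were again 6 and 11. Jarid2, a targeting subunit, measured 4.04, 3.30 and 4.96 TPM in MEFs, 6.33, 5.29 and 7.41 TPM in +MyoD and 22.6, 18.5 and 14.4 TPM with F/R/C. It rose by 1.62 against +MyoD, where Ezh2 rose by 0.95 and no Polycomb gene fell. SP gave 5 higher and 11 lower than MEFs, and CP 7 and 10. Ezh2 is also a gene of dividing cells, and the proliferation genes given above moved the same way. The part of proliferation in the Ezh2 values was not tested.

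Of 9 Trithorax and H3K27 demethylase genes, which keep active Hox genes active, 4 fell after MyoD (median of the list -0.48) and none rose: Dpy30 (-1.58), Wdr5 (-1.39) and Ash2l (-0.96), shared subunits of the methyltransferase complexes, and the demethylase Kdm6a (-0.53). Kmt2a, the Trithorax enzyme for which Hox genes are the classical targets, stood at 0.01 ± 0.16. Against MEFs, 4 of them fell in F/R/C cultures, 4 where SP was added and 5 where CP was added.

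Retinoic acid is a classical inducer of 3′ Hox genes, and most of its response genes rose. Of 8 genes, 6 rose after MyoD (median log2 fold change 1.87) and 7 with F/R/C against MEFs (3.25). Stra6, the cellular retinol receptor, measured 0.701, 0.363 and 0.248 TPM in MEFs, 0.785, 0.692 and 3.97 TPM in +MyoD and 93.4, 50.6 and 68.1 TPM with F/R/C (7.78 ± 0.40 against MEFs, adjusted p = 1.13e-09). Rarb, a receptor that is itself a target, measured 2.34, 0.861 and 1.06 TPM, 2.0, 1.30 and 6.66 TPM, and 42.0, 30.8 and 44.7 TPM (5.83 ± 0.35, adjusted p = 5.74e-09). Line 3 of +MyoD stood above lines 1 and 2 in both. Cyp26b1, which degrades retinoic acid, rose by 2.88 after MyoD and by 3.73 with F/R/C. Crabp2, which carries it to the nucleus, rose by 3.77 after MyoD but fell by 2.0 between +MyoD and F/R/C.

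Of 16 genes upstream of Hox genes in axial patterning, 10 were tested and 5 rose after MyoD (median 0.90), and 5 rose and 2 fell with F/R/C against MEFs (2.0). Aldh1a2, which makes retinoic acid in the trunk, rose by 2.54 and 3.51. Gdf11, the signal that opens the posterior trunk programme in the embryo, rose by 0.85 and 1.31. Rara fell by 0.89 with F/R/C. Cdx2, the caudal activator of Hox genes, was at 0 TPM in 13 of the 15 libraries and at most 0.0376 TPM.

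Of 22 limb positional genes other than Hox genes, 5 rose after MyoD, a share near the 22.8% of all genes, and 1 fell (median 0.08). With F/R/C against MEFs 12 rose, beside 26.6% of all genes, and 2 fell (median 0.79). Tbx5 gave 1.79 after MyoD and 1.86 with F/R/C, and Tbx4, its hindlimb counterpart, measured 4.18, 5.26 and 3.84 TPM in MEFs and 6.68, 23.5 and 16.5 TPM with F/R/C (1.65 ± 0.53, adjusted p = 0.016). Pitx1, the hindlimb selector, measured 5.90, 4.98 and 5.53 TPM and 4.43, 6.42 and 4.93 TPM and was not called. Msx1 rose by 3.71 and Tbx2 and Tbx3, genes of the limb margins, by 2.47 and 1.49 with F/R/C. Msx2 fell by 1.66 against MEFs, and Lmx1b fell by 2.5 against +MyoD. Shh, the posterior limb signal upstream of the 5′ Hoxd genes, measured 0.339, 0.673 and 0.442 TPM in MEFs, was at 0 in the 3 +MyoD libraries, and was called lower there.

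Of 12 trunk mesoderm genes tested, 3 rose after MyoD (median 1.16) and none fell, and with F/R/C against +MyoD 1 rose and 5 fell. Foxc1, a somite and sclerotome gene, rose by 1.41 after MyoD and fell by 1.29 between +MyoD and F/R/C. Pax1, the sclerotome marker, fell by 2.73 with F/R/C against MEFs, where Foxc2 gave -2.11. Lbx1, the gene of migrating limb muscle precursors, measured 0, 0 and 0.035 TPM in MEFs and 0.866, 1.06 and 1.63 TPM with F/R/C. Meox1, a somite gene, was called higher after MyoD through line 2, at 0.791, 19.8 and 0.591 TPM. Head genes outside the Hox domain gave 1 higher and 2 lower of 13 tested after MyoD (median 0.44), and 3 and 2 with F/R/C (0.92). Dlx2, of the facial arches, measured 23.2, 21.9 and 27.6 TPM in MEFs and 4.79, 3.81 and 4.21 TPM in +MyoD (-2.65 ± 0.32, adjusted p = 7.68e-06). Otx2, the forebrain gene, was at 0 in all 15 libraries.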

How the data were processed

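RNA was profiled in 15 bulk libraries, 3 MEF lines in each of 5 conditions. The submitters' processing notes name bcl2fastq 2.20, fastp 0.20.0, kallisto 0.46.1, GRCm38.p6 and DESeq2. For each library the authors deposited 1 kallisto table of estimated counts, TPM and effective lengths per transcript. Transcripts were matched to GENCODE M21 (121104 of 121843 transcripts, 35675 genes), leaving 0.236 to 0.327% of counts unmatched, and estimated counts and TPM were summed per gene. Kallisto splits reads of shared exons by likelihood, so genes sharing exons (Hoxa2 and Hoxa3 with Gm28308, Hoxd3 and Hoxd4 with Gm28230, Hoxd10 and Hoxd11 with Gm28309, Hoxc5 with Hoxc10, Hoxd3 with Hoxd4) are less certain, and kallisto's strand setting is not given in the sources used here.

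Rounded estimated counts were tested with edgeR 4.0.16 (R 4.3.3), by its quasi-likelihood test with TMM scaling and a condition term over all 15 libraries, after a count minimum of 10 per library and 15 in total (19331 genes, 37 of 39 members). P-values were adjusted by Benjamini-Hochberg over all genes tested, and a gene was called at an adjusted p of at most 0.05 and a log2 fold change over 0.5 in size. The biological coefficient of variation was 0.35 with 10 residual degrees of freedom, and intervals on fold changes cover 95%. The scripts were tested on simulated data. There, 38 of 100 genes with a true log2 change of 1 in size were recovered. With a change of 2, 51 of 100 were, and 1 unchanged gene was called. Few genes changed in the simulation, so these rates need not hold for the data. A member that was not called may still differ. Summed TPM were compared by two-sided exact permutation tests. The files hold the same 3 lines in every condition, which pairs the libraries by design. Same-line deviations from the condition means over all genes correlated at 0.074 on average (-0.004 to 0.237, 30 pairs) against -0.037 between lines. For 15 of 15 libraries, the mean correlation with libraries of other conditions was highest for the library's own line. Over the 37 Hox genes the same-line mean was -0.014, and the own line was highest for 6 of 15. No pair of replicates was alike within counting noise (lowest chi-square per degree of freedom 15.4).

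Values are given in every library for members called in any comparison and for the 3 most abundant of each cluster. For the other lists, up to 4 genes per comparison with the smallest p are named, with genes that moved against their list and a few chosen after their values were seen (among them Kdm6a, Lmx1b, Tbx4, Pitx1, Cdx2, Otx2, Hotair and markers at 0). The members and lists were chosen with earlier results of these data known. Alternatives were DESeq2 1.42.0, its size factors in edgeR, no filter, length-scaled counts, exon-sharing genes added, a line block, the 6 libraries of a comparison alone and each library left out. Results of some genes are not reported here, though counts and sums include them. Promoter windows came from RefSeq. Figures used Python 3.11.15 and matplotlib 3.10.9.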

Additional observations from a re-analysis of the deposited data

How the results depend on the processing

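Of 53 calls of a Hox gene in a comparison, 20 held under all 22 alternatives, and none changed sign. Calls lost numbered 0 with DESeq2, with its size factors in edgeR and with exon-sharing genes added, 3 without the filter, 11 with length-scaled counts and 12 with the 6 libraries of the comparison alone. The line as a block ended 3 (Hoxb13 with F/R/C, adjusted p = 0.0543, Hoxb9 and Hoxc5 with CP, 0.0562 and 0.0625, all against MEFs) and changed no other call. DESeq2 called 2 members lower after MyoD in place of 1, and 1 higher with SP against MEFs, as did the 6-library fit. The calls that DESeq2 added included Hoxb2 higher and Hoxc12 lower after MyoD, and Hoxa5 and Hoxb2 lower between F/R/C and +MyoD. Against MEFs it added Hoxd8 higher and Hoxd13, Hoxc5 and Hoxb13 lower with SP. With CP it added Hoxa4 higher and Hoxb13 lower against MEFs. Between F/R/C and +MyoD the 6-library fit gave 0 higher and 2 lower, with fewer degrees of freedom.

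Leaving out 1 library gave 4 to 9 members higher and 1 to 4 lower after MyoD, 2 to 4 and 5 to 10 with F/R/C, 0 to 1 higher with SP, and 0 to 3 and 6 to 12 with CP, all against MEFs, and 0 to 2 and 3 to 12 between F/R/C and +MyoD.

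Summed levels depended on scale. In CPM the log2 ratio to MEFs of all Hox genes was 0.32 after MyoD, -0.25 in the F/R/C cultures, -0.41 where SP was added and -0.36 for CP. For posterior genes it was -0.47 for F/R/C and -0.48 for either added inhibitor, and with exon-sharing genes added it was -0.42 for SP and -0.39 for CP. The Hoxa sum gave -0.41 with SP and -0.31 with CP, and the Hoxb sum -0.068 with F/R/C. The Hoxd sum turned to -0.14 in CPM and -0.015 with exon-sharing genes added with F/R/C. It gave -0.26 and -0.44 with SP, -0.33 and -0.38 with CP, and -0.43 with exon-sharing genes added between SP and F/R/C. In this alternative a gene was added to each Hox gene with which it shares exons. Gm28230 and Gm28309 were thus counted anew for every partner in the Hoxd sum, as was Gm28309 in the posterior sum. The values with exon-sharing genes added overweight them for that reason, and any other cause was not tested.

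Limits: 3 libraries per condition cannot take an exact permutation p below 0.1, and low members such as Hoxb13, Hoxc12, Hoxd3 and Hoxd12 had wide errors.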

Other observations

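The clusters also hold noncoding transcripts, of which 9 of 11 selected by symbol were tested. After MyoD 2 rose, a share near that of all genes (22.8%), and none fell, beside 18.0%. With F/R/C against MEFs the same counts were found, beside 26.6% and 21.6% of all genes. Hoxb5os, antisense to Hoxb5, measured 3.48, 0.943 and 3.52 TPM in MEFs, 13, 9.48 and 11.4 TPM in +MyoD and 4.58, 6.82 and 9.31 TPM with F/R/C (1.98 ± 0.49 after MyoD, adjusted p = 0.00375). Its +MyoD lines did not overlap the MEFs, as was the case for Hoxb5. Hoxaas2, an antisense transcript of the Hoxa cluster, measured 0.930, 0.843 and 0.835 TPM in MEFs and 3.31, 4.54 and 0.566 TPM in +MyoD (1.51 ± 0.55, adjusted p = 0.0365), with line 3 below the MEFs. Hotairm1, at the 3′ end of the Hoxa cluster, measured 16.4, 9.71 and 18.2 TPM in MEFs, 20.8, 52.4 and 32.4 TPM in +MyoD and 4.70, 19.2 and 17.5 TPM with F/R/C, and fell against +MyoD (-1.32 ± 0.41, adjusted p = 0.0301). Hoxa11os, antisense to Hoxa11, was highest in +MyoD line 3 (17.7, 21.6 and 34.7 TPM in +MyoD), as Hoxa11 was. Hotair, from the Hoxc cluster between Hoxc11 and Hoxc12, was at most 0.394 TPM and was not tested. Since kallisto's strand setting is not given in the sources used here, reads of these transcripts and of their partners may not be separable.

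Genes just outside the clusters and the ParaHox genes were listed for comparison, and 7 of 11 were tested. After MyoD 3 rose and 1 fell, beside 22.8% and 18.0% of all genes. Skap2, beside the Hoxa cluster, measured 16.0, 12.8 and 15.3 TPM in MEFs, 51.6, 55.8 and 55.6 TPM in +MyoD and 18.4, 23 and 39.5 TPM with F/R/C (1.59 ± 0.18 after MyoD, -0.90 ± 0.17 for F/R/C against +MyoD). Calcoco1, beside the Hoxc cluster, measured 13.2, 14.6 and 17.2 TPM in MEFs and 49.0, 67.0 and 64.4 TPM in +MyoD (1.87 ± 0.17). Lnpk, beyond the 5′ end of the Hoxd cluster, measured 34.2, 39.8 and 33.4 TPM in MEFs and 16.3, 12.4 and 10.7 TPM in +MyoD (-1.71 ± 0.20). Evx2, which adjoins Hoxd13, measured 0.308, 0.444 and 1.1 TPM in +MyoD, again highest in line 3 (1.87 ± 0.74, adjusted p = 0.0499). With F/R/C, Skap1, beyond Hoxb1, measured 0.418, 0 and 0.454 TPM against 4.63, 6.40 and 7.59 TPM in MEFs (-4.84 ± 1.28, adjusted p = 0.00496).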
